A study of Mus musculus with 12 samples.

Results

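The mRNAs of 10 genes around mechanistic target of rapamycin complex 1 (mTORC1) were followed in mouse tibialis anterior (TA) muscles with and without forced expression of the human long non-coding RNA *FRAIL1*. The genes were *Mtor*, *Rptor*, *Deptor*, *Rraga*, *Rragc*, *Rragd*, *Tsc1*, *Tsc2*, *Rheb* and *Sesn1*. They were chosen by name for their place in the pathway, with earlier results of these data known. Their rows were found by matching the NCBI Gene IDs of the count table to these mouse symbols. All 10 were among the 27179 genes of the table, and all 10 were among the 15502 genes with enough counts to be tested. The mice were male C57BL/6N animals of WT genotype, obtained at 6 to 8 weeks of age and used within 2 weeks. In each of 6 mice, the TA of 1 leg received 10 μg of empty plasmid (pcDNA3, Control muscles) and the TA of the other leg 10 μg of plasmid encoding full-length *FRAIL1* (FRAIL1 muscles). All 12 muscles were pretreated with hyaluronidase, electroporated and taken at day 7, so both groups went through the same procedure. The plasmid's CMV promoter is not specific to 1 cell type, and the mouse count table does not hold the human transcript, so its level in each muscle was not measured here. Muscles were numbered 1 to 6 in each group, and muscles of the same number are called a numbered pair.

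mTORC1 is a protein kinase complex on the surface of the lysosome that promotes protein synthesis and restrains autophagy, and in skeletal muscle it is a main regulator of fiber size. Amino acids act through the Rag GTPases, which work as pairs of RagA or RagB with RagC or RagD and bring mTORC1 to the lysosome. Growth factors act through the TSC complex, of which TSC1 and TSC2 are the core, and which switches off the small GTPase RHEB, the direct activator of the kinase. mRNA levels do not report the activity of this pathway, which is set largely by phosphorylation and nucleotide state.

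Of the 10 mRNAs, that of *Tsc1*, which encodes the subunit that stabilizes TSC2, was lower in FRAIL1 muscles (22.9% lower mean), a call kept in 18 of 24 alternative fits. The mRNAs of *Rragd*, encoding RagD, and *Rheb* had means 26.0% and 12.8% lower, and were lower in every numbered pair, but did not pass the threshold of 0.05 on the adjusted p-value. They passed it in 9 and 7 of the 24 alternative fits, among them the fit that compares muscles within numbered pairs. The other 7 did not pass it in any fit. Promoter windows of these 3 genes, and of *Rragc*, the paralog of *Rragd*, are shown. Each runs from 250 bases before to 50 bases after a RefSeq start site on GRCm38.p6. The bases read 5′ to 3′ on the strand of the gene, with the E-box CACGTG in capitals. The windows lie at chr2:28640983-28641282 on the plus strand (*Tsc1*), chr4:32982748-32983047 on the plus strand (*Rragd*), chr5:24842312-24842611 on the minus strand (*Rheb*) and chr4:123917183-123917482 on the plus strand (*Rragc*). The annotated *Tsc1* gene starts at 28640993, so most bases before the start site of its window lie within the gene.
Tsc1: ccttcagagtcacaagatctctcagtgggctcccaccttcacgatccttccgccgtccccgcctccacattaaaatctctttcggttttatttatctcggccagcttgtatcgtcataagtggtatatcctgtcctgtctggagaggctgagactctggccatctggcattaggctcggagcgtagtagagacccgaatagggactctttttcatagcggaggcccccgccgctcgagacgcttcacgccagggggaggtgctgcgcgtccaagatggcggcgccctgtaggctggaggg
Rragd: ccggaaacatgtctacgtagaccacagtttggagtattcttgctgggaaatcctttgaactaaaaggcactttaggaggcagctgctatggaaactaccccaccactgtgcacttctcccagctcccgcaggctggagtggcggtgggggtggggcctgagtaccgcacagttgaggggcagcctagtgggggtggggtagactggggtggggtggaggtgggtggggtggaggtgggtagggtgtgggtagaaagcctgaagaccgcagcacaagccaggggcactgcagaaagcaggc
Rheb: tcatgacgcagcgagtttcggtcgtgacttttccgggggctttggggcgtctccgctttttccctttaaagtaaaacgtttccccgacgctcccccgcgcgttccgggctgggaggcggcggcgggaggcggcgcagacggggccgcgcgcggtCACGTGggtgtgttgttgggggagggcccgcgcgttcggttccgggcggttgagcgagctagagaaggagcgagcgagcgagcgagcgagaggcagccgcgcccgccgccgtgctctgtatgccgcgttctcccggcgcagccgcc
Rragc: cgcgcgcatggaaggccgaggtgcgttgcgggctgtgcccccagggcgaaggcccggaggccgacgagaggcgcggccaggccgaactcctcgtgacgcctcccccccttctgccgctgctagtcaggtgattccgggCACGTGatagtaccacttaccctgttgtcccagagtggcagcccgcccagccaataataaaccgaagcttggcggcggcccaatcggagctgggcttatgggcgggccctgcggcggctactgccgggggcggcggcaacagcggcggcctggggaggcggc

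The following motifs were searched on both strands of the windows: the E-box CACGTG, the longer CLEAR core TCACGTGA that contains it and is bound by the lysosomal regulators TFEB and TFE3, and the FoxO site GTAAACA. The promoter table held 10 windows for 9 of the 10 genes (*Sesn1* has 2 start sites), and none was shown for *Deptor*. The E-box was present in 2 windows, those of *Rragc* (first base at -112, counting the start site as 0) and *Rheb* (-96), and the same 6 letters are held by 7.15% of 32851 promoters. No window held the CLEAR core, which 0.974% of promoters hold. The FoxO site was found in 1 of the *Sesn1* windows, 22 bases after the start site, against 3.65% of all promoters. None of these letters was found in the *Tsc1* or *Rragd* window. The G and C content was 57.3% in the *Tsc1* window, 59.7% in that of *Rragd*, 70% in that of *Rheb* and 70.7% in that of *Rragc*, beside a median of 52.7% over all promoters.

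Total counts ranged from 45018389 to 59309210 in Control and from 44848322 to 60527385 in FRAIL1 muscles, and each of the 10 genes had between 433 and 14387 counts per muscle. Levels are given as CPM, the counts of a gene brought to a common library total and scaled for library composition by the trimmed mean of M-values (TMM). FRAIL1 muscle 5 stood apart from the other muscles, with a TMM factor of 1.19 where the next highest was 1.07. It had the lowest value of its group for *Mtor*, *Rragd*, *Tsc1*, *Tsc2* and *Rheb*, so the results that rest on it are also given without it. Across all genes tested, edgeR's quasi-likelihood test called 974 (6.28%) at an adjusted p under 0.05, of which 287 (1.85% of those tested) were lower in FRAIL1 muscles. With the numbered pair as a block, it called 2186 (14.1%), of which 1027 (6.62%) were lower.

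Markers of other cell types moved between the groups, and because RNA came from whole muscle, fewer cells of a type and less RNA per cell cannot be told apart. Of 7 genes listed as markers of regenerating fibers 6 were called higher, and all 7 had a positive log2 fold change. Whether fibers were regenerating was not tested. Their summed level was 792 to 1472 CPM in Control and 1217 to 4649 CPM in FRAIL1 muscles, highest in muscle 5. Of 8 fibroblast markers 1, *Postn*, was called higher, and 7 had a positive log2 fold change (median 0.59). The sum was 993 to 1861 CPM in Control and 1982 to 5346 CPM in FRAIL1 muscles, again highest in muscle 5. Adult fast fibers make up most of the TA. Their markers summed to 173895 to 203129 CPM in Control and 132562 to 186399 CPM in FRAIL1 muscles, lowest in muscle 5. Of these 8 markers only *Ckm* was called lower, and 6 had a negative log2 fold change (median -0.21). Of 8 endothelial markers *Tek* and *Vwf* were called lower, and all 8 had a negative log2 fold change. The sums were 457 to 529 CPM in Control and 368 to 466 CPM in FRAIL1 muscles. No marker passed the test among 8 for macrophages (203 to 316 CPM in Control, 255 to 672 CPM in FRAIL1 muscles), 6 for satellite cells (40.01 to 46.2 and 45.7 to 53.5 CPM), 7 for Schwann cells (83.7 to 149 and 70.7 to 109 CPM) or the 7 tested of 8 for lymphocytes (8.41 to 18.1 and 8.36 to 19.4 CPM), of which the B cell marker *Ms4a1* was at 0 in at least 1 muscle. Of these, 7 macrophage and 5 satellite cell markers had a positive log2 fold change (list medians 0.63 and 0.33). All 7 Schwann cell markers had a negative one (median -0.26), and the lymphocyte markers were split, 3 positive and 4 negative. With the block, *Postn* was not called, and *Myh4* (fast fibers) and *Kdr* (endothelium) were also called lower. In that fit 4 macrophage markers, 2 satellite cell markers and the lymphocyte marker *Cd4* were called higher, as were all 7 markers of regenerating fibers. Their part in the results below was not tested.

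**Figure D1:**
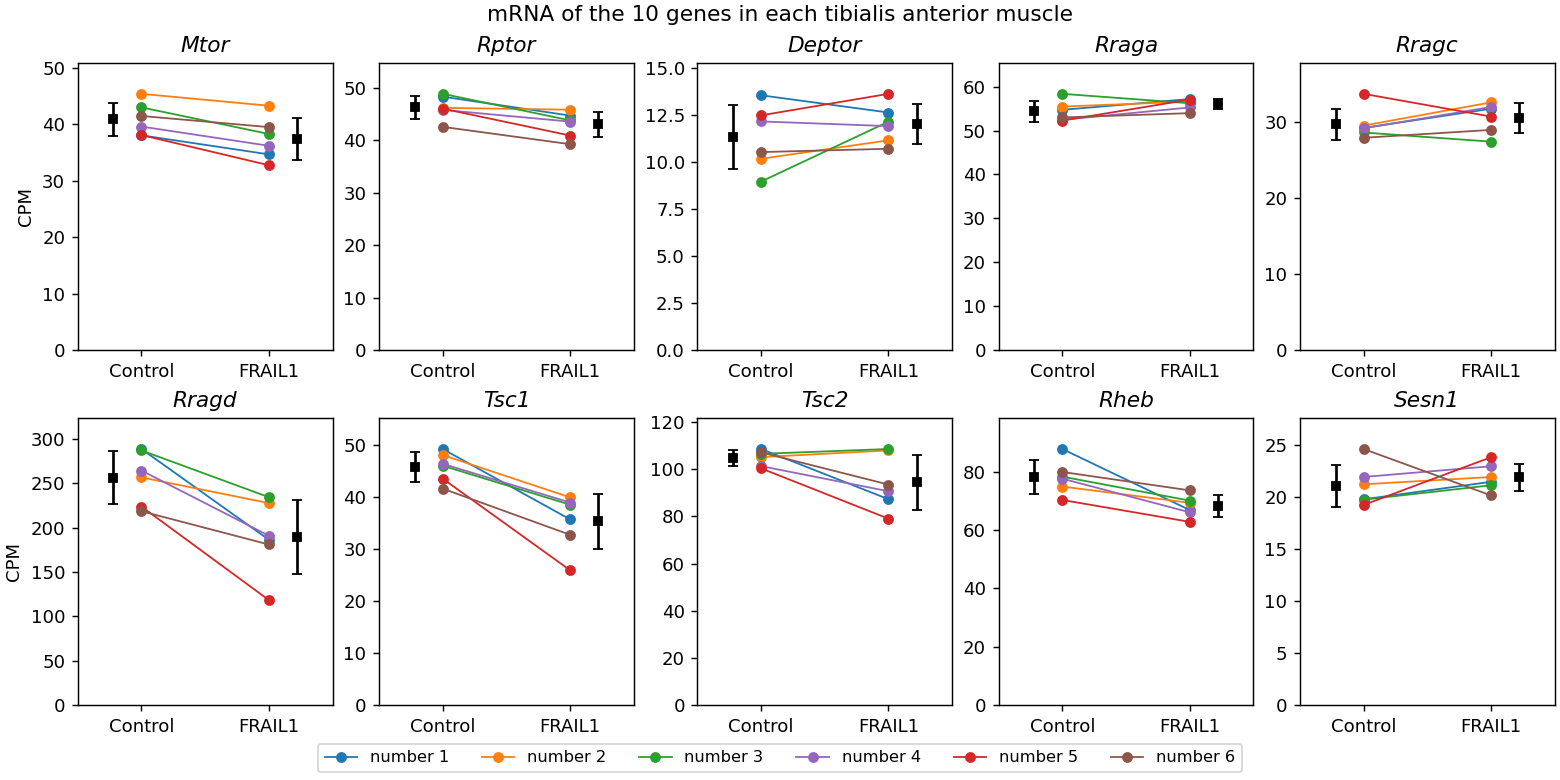
CPM of the 10 genes in each muscle (vertical axes, from 0), with muscles of the same number joined and black squares for the mean ± SD (n = 6). All 6 FRAIL1 values of *Tsc1* (26.0 to 39.97 CPM) lie below all 6 Control values (41.6 to 49.3 CPM), and muscle 5 is the lowest FRAIL1 muscle for *Rragd* (118 CPM).

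*Tsc1* (Gene ID 64930, chr2:28640993-28691172 on GRCm38) encodes hamartin, the TSC subunit that keeps TSC2 stable. Its mRNA ranged from 41.6 to 49.3 CPM in Control muscles (median 46.2) and from 26.0 to 39.97 CPM in FRAIL1 muscles (median 37.1). The groups did not overlap, which held in this direction for 274 (1.77%) of all genes tested, and FRAIL1 muscles 5 and 6 had the lowest values. The mean fell from 45.8 ± 2.83 to 35.3 ± 5.29 CPM (SD, n = 6 each). The log2 fold change was -0.38 (standard error, SE, 0.0902, 95% confidence interval -0.57 to -0.18), and the edgeR quasi-likelihood test gave an adjusted p of 0.0279. *Tsc1* was thus the 1 gene called among the 10, beside 6.28% of all genes called in either direction and 1.85% called lower. The log2 ratio within numbered pairs lay between -0.25 (number 4) and -0.75 (number 5), below 0 in 6 of 6. With the pair as a block the adjusted p of that test was 0.00961.

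The call on *Tsc1* did not hold in every subset of muscles. It held without FRAIL1 muscle 5 (log2 fold change -0.30, edgeR quasi-likelihood adjusted p = 0.0106) and without both muscles numbered 5 (-0.32, adjusted p = 0.0129). It was lost when Control muscle 1 (adjusted p = 0.0649), 2 (0.0621), 3 (0.0580) or 4 (0.0543), or FRAIL1 muscle 1 (0.0567) or 6 (0.0536), was left out, while the log2 fold change stayed between -0.42 and -0.30 over all 12 such fits. The number of genes called overall also moved, from 974 with all muscles. It was 364 to 601 in the fits that lost the *Tsc1* call and 494 to 2110 in those that kept it. The same fits with 1 muscle left out are used for the genes below.

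*Tsc2* (Gene ID 22084, chr17:24595816-24632676) encodes tuberin, the subunit with the activity that turns RHEB off. Its mRNA ranged from 100.4 to 109 CPM in Control (median 106) and from 79.1 to 109 CPM in FRAIL1 muscles (median 92.1). FRAIL1 muscles 2 and 3 were as high as the Control muscles and the other 4 lay below all of them. The log2 fold change was -0.15 (SE 0.0741, 95% confidence interval -0.31 to 0.01, edgeR quasi-likelihood adjusted p = 0.202), which did not pass the threshold. Exons of *Tsc2* overlap those of the neighbouring gene *Pkd1* on the opposite strand over 7.2% of their length, and the strand setting of the counting is not given in the sources used here. Per kilobase of exon, *Tsc1* made up 26.2 ± 1.19% of the summed *Tsc1* and *Tsc2* level in Control and 23.3 ± 1.82% of it in FRAIL1 muscles (SD, n = 6 each), and the share was lower in 6 of 6 numbered pairs. The ranges of this share overlapped (24.0 to 27.1% and 21.1 to 25.9%), and the difference in response between the subunits was not tested. The size of the share depends on the exon lengths used, here the union of all annotated exons of each gene.

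*Rheb* (Gene ID 19744, chr5:24802823-24842361) encodes the GTPase on which the TSC complex acts and which activates mTORC1. Its mRNA ranged from 70.4 to 87.8 CPM in Control (median 78.0) and from 62.9 to 73.6 CPM in FRAIL1 muscles (median 68.1). Of the FRAIL1 muscles, 5 lay below every Control muscle, and only muscle 6 lay within the Control range. Means were 78.2 ± 5.80 CPM (SD, n = 6) and 68.2 ± 3.72 CPM (SD, n = 6), with a log2 fold change of -0.20 (SE 0.0600, 95% confidence interval -0.33 to -0.07, edgeR quasi-likelihood adjusted p = 0.0586). It was lower in 6 of 6 numbered pairs, with log2 ratios from -0.11 (number 2) to -0.39 (number 1). With the pair as a block the adjusted p was 0.0341 by that edgeR test, and without both muscles numbered 5 it was 0.0445. Leaving out 1 muscle at a time, it was under the threshold in 1 of 12 fits, that without FRAIL1 muscle 3 (0.0477), was 0.0867 without FRAIL1 muscle 5, and reached 0.120.

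**Figure D2:**
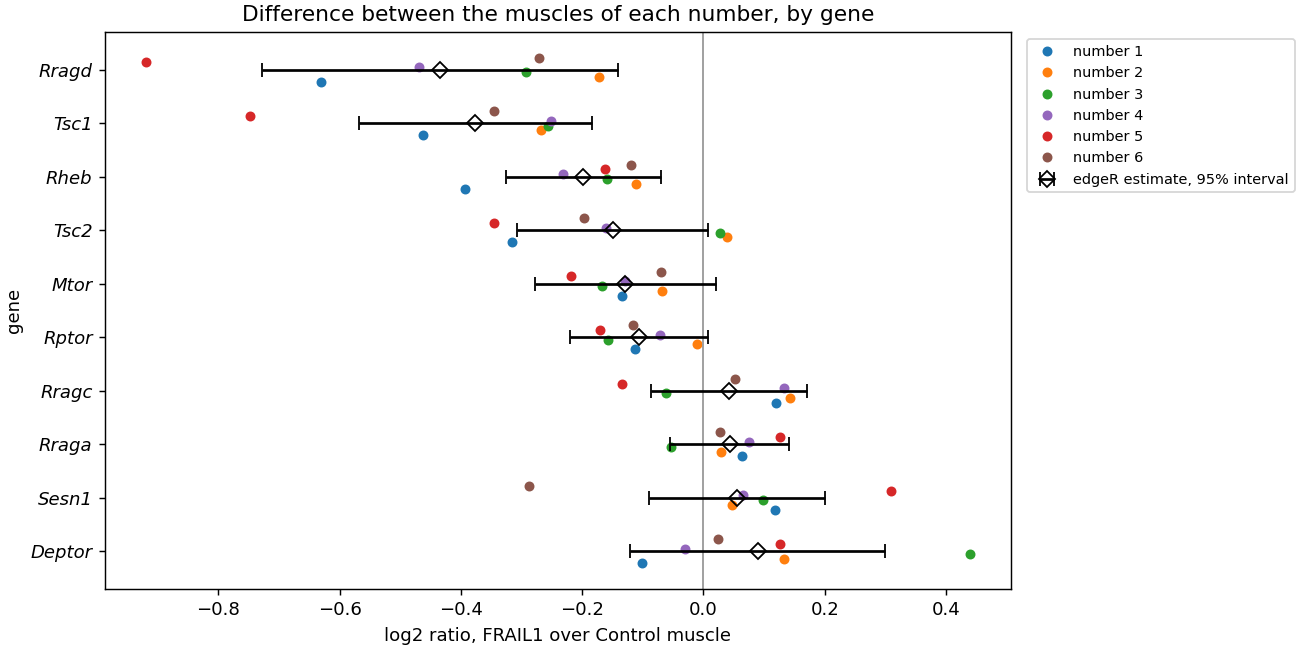
Log2 ratio of the FRAIL1 to the Control muscle of each number (coloured points) and edgeR's log2 fold change with its 95% interval (diamonds and bars) for the 10 genes, ordered by fold change. All 6 points lie below 0 for *Rragd*, *Tsc1*, *Rheb*, *Mtor* and *Rptor*, and number 5 is the farthest left for *Rragd* (-0.92) and *Tsc1* (-0.75).

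*Rragd* (Gene ID 52187, chr4:32982998-33022180) encodes RagD, which pairs with RagA or RagB. Its mRNA ranged from 219 to 289 CPM in Control (median 261) and from 118 to 234 CPM in FRAIL1 muscles (median 189). FRAIL1 muscles 2 and 3 (228 and 234 CPM) lay within the Control range, the other 4 lay below it, and muscle 5 was the lowest. Means were 257 ± 30.2 CPM (SD, n = 6) and 190 ± 41.5 CPM (SD, n = 6). The log2 fold change was -0.43 (SE 0.137, 95% confidence interval -0.73 to -0.14, edgeR quasi-likelihood adjusted p = 0.0676), the farthest from 0 among the 10 genes. With the pair as a block it was -0.46, with an adjusted p of 0.0134 by the same test. The log2 ratio within pairs was below 0 in 6 of 6, from -0.17 (number 2) to -0.92 (number 5). Leaving out 1 muscle at a time, the adjusted p was under the threshold in 3 of 12 fits, without FRAIL1 muscle 2 (0.0423), 3 (0.0316) or 5 (0.0439, log2 fold change -0.33), and reached 0.132 in the others. Without both muscles numbered 5 it was 0.0332 (log2 fold change -0.37).

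With the block, 3 of the 10 genes were called, *Tsc1*, *Rragd* and *Rheb*, all lower, beside 14.1% of all genes called in either direction and 6.62% called lower in that fit.

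The mRNAs for RagC and RagA differed little between the groups. *Rragc* (Gene ID 54170, chr4:123917433-123936997) encodes RagC, the alternative to RagD as the partner of RagA or RagB. Its mRNA ranged from 27.9 to 33.7 CPM in Control (median 29.2) and from 27.4 to 32.6 CPM in FRAIL1 muscles (median 31.2). The groups overlapped, and the log2 fold change was 0.04 (95% confidence interval -0.09 to 0.17, edgeR quasi-likelihood adjusted p = 0.689). *Rraga* (Gene ID 68441, chr4:86575673-86577285), which encodes RagA, ranged from 52.3 to 58.4 CPM in Control (median 53.8) and from 54.0 to 57.2 CPM in FRAIL1 muscles (median 56.4). Its log2 fold change was 0.04 (95% confidence interval -0.05 to 0.14, edgeR quasi-likelihood adjusted p = 0.571), so a fall of the size seen for *Rragd* lies outside both intervals. The paralog *Rragb*, encoding RagB, was at 1.24 CPM per kb in Control (2.81 ± 0.473 CPM and 2.31 ± 0.614 CPM in the 2 groups, SD, n = 6 each) and had a log2 fold change of -0.28 (95% confidence interval -0.67 to 0.11, adjusted p = 0.340). Exons of *Rragc* overlap an antisense gene over 7.9% of their length. Whether reads there can be assigned to *Rragc* depends on the strand setting, which is not given in the sources used here.

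Levels per kilobase used the union of all annotated exons, which can exceed a single transcript (for *Tsc2* 9620 bases, beside a transcript of 6266). The order of the genes depends on these lengths, and other lengths were not tried. On this measure *Rragd* was the most abundant of the 10 mRNAs in Control muscles (49.6 CPM per kb). It was followed by *Rraga* (33.6), with *Tsc2* (10.9), *Rheb* (10.1) and *Rragc* (8.88) next. *Sesn1* (5.30), *Mtor* (4.05), *Tsc1* (3.87), *Rptor* (3.44) and *Deptor* (1.27) were lower. The Control ranges of *Tsc2* and *Rheb*, *Rheb* and *Rragc*, and *Mtor* and *Tsc1* overlapped, and the order of these neighbours held in 5, 5 and 4 of 6 Control muscles. The ranges of *Tsc1* and *Rptor* also overlapped, but *Tsc1* was the higher of them in 6 of 6 Control muscles. Of the 2 genes for RagC and RagD, *Rragd* made up 84.7 ± 2.09% of the summed level per kilobase in Control (SD, n = 6, range 81.1 to 86.6%) and 79.4 ± 4.46% in FRAIL1 muscles (SD, n = 6, range 71.4 to 84.7%). The share was lower in 6 of 6 numbered pairs, and its lowest value was in FRAIL1 muscle 5. *Rraga* made up 96.4 ± 0.616% of the RagA and RagB level in Control and 97.1 ± 0.752% in FRAIL1 muscles (SD, n = 6), lower in 1 of 6 pairs. With these exon lengths, RagA and RagD thus had the more abundant mRNA of their respective paralogs in every muscle of both groups.

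**Figure D3:**
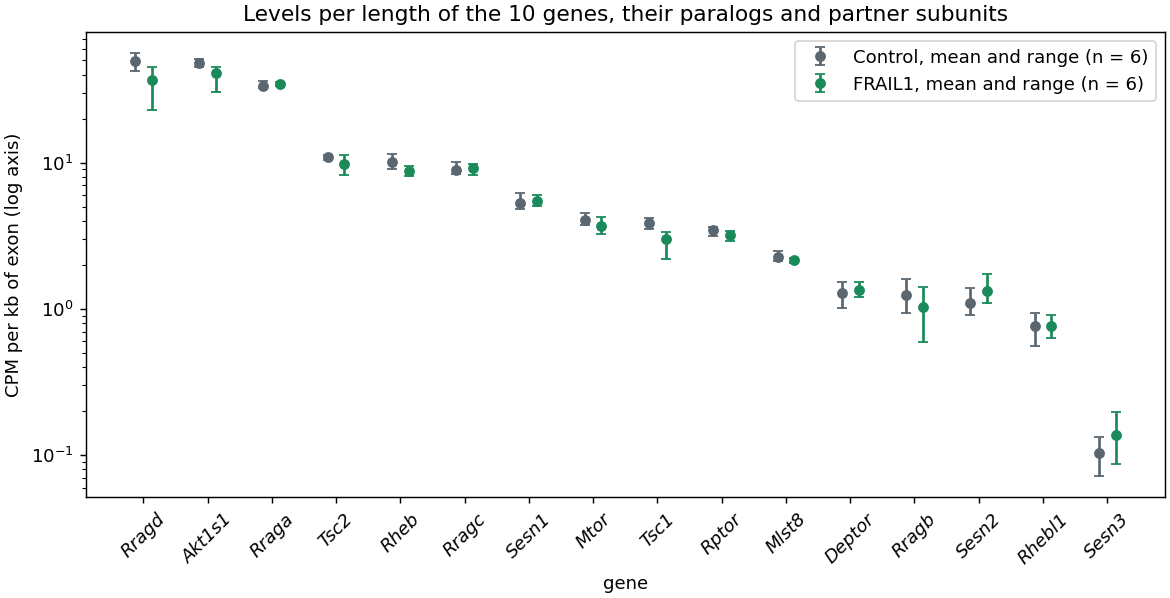
Mean and range over 6 muscles of CPM per kilobase of exon (log axis) for the 10 genes, their paralogs and the mTORC1 subunits *Mlst8* and *Akt1s1*, ordered by the Control mean. The order depends on the lengths used, the union of all annotated exons of each gene. Among the 10 genes, *Rragd* (49.6 in Control, 36.7 in FRAIL1 muscles) and *Rraga* (33.6 and 34.6) stand above the other 8. *Akt1s1* (48.1 and 41.2) lies between them in Control and has the highest mean in FRAIL1 muscles. Of all genes shown, *Sesn3* is the lowest (0.103 in Control).

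**Figure D4:**
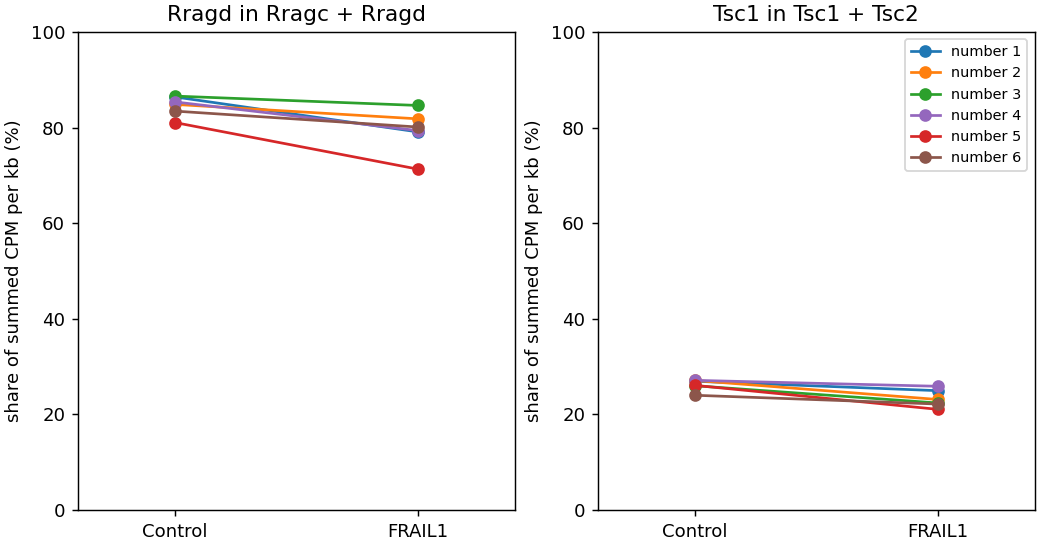
Share of *Rragd* in the summed CPM per kilobase of *Rragc* and *Rragd* (left) and of *Tsc1* in that of *Tsc1* and *Tsc2* (right), in percent, with muscles of the same number joined. Every line slopes down, for *Rragd* from a mean of 84.7% to 79.4% and for *Tsc1* from 26.2% to 23.3%, while the ranges of the groups overlap.

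*Mtor* (Gene ID 56717, chr4:148448582-148557685), which encodes the kinase, ranged from 38.0 to 45.4 CPM in Control (median 40.5) and from 32.7 to 43.3 CPM in FRAIL1 muscles (median 37.2). The groups overlapped, and the FRAIL1 muscle was the lower one in 6 of 6 numbered pairs. Its log2 fold change was -0.13 (95% confidence interval -0.28 to 0.02, edgeR quasi-likelihood adjusted p = 0.248, 0.0825 with the block). *Rptor* (Gene ID 74370, chr11:119602905-119899591) encodes Raptor, the scaffold that defines mTORC1, and ranged from 42.6 to 48.9 CPM in Control (median 46.1) and from 39.3 to 45.9 CPM in FRAIL1 muscles (median 43.7). The groups again overlapped, with 6 of 6 pairs lower. The log2 fold change was -0.11 (95% confidence interval -0.22 to 0.01, edgeR quasi-likelihood adjusted p = 0.211, 0.145 with the block). *Deptor* (Gene ID 97998, chr15:55112317-55259273), an inhibitor of the kinase bound within the complex, ranged from 8.96 to 13.6 CPM in Control (median 11.3) and from 10.7 to 13.6 CPM in FRAIL1 muscles (median 12.03). It was higher in 4 of 6 pairs, with a log2 fold change of 0.09 (95% confidence interval -0.12 to 0.30, edgeR quasi-likelihood adjusted p = 0.587).

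*Sesn1* (Gene ID 140742, chr10:41810574-41908436) encodes Sestrin 1, a stress-inducible protein that restrains mTORC1 when leucine is low. Its mRNA ranged from 19.2 to 24.6 CPM in Control (median 20.5) and from 20.2 to 23.8 CPM in FRAIL1 muscles (median 21.7). The FRAIL1 range lay inside the Control range. The log2 fold change was 0.05 (95% confidence interval -0.09 to 0.20, edgeR quasi-likelihood adjusted p = 0.635), and 5 of 6 pairs were higher. The paralogs *Sesn2*, the best studied leucine sensor, and *Sesn3* were lower per kilobase of exon (1.10 and 0.103 CPM per kb in Control, beside 5.30 for *Sesn1*). *Sesn2* averaged 3.83 ± 0.699 CPM with empty plasmid and 4.62 ± 0.824 CPM with *FRAIL1* (SD, n = 6 each), with a log2 fold change of 0.27 (95% confidence interval -0.04 to 0.57, adjusted p = 0.237). *Sesn3* was at 1.58 ± 0.301 and 2.10 ± 0.645 CPM (SD, n = 6), with a log2 fold change of 0.42 (95% confidence interval -0.02 to 0.85, adjusted p = 0.204). Both were higher in 6 of 6 pairs and neither passed the edgeR test, with or without the block. *Sesn1* made up 81.4 ± 3.10% of the summed Sestrin level per kilobase in Control and 79.0 ± 2.28% in FRAIL1 muscles (SD, n = 6).

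Of the 10 genes, 6 had a negative and 4 a positive log2 fold change, with a median of -0.12 beside a median of 0.0096 over all genes tested. The 4 with a positive value were *Deptor*, *Rraga*, *Rragc* and *Sesn1*, and none of these was called in any fit.

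Among 53 other genes of the pathway, 52 were in the table and tested, and 1, *Kics2*, was not matched to it. Of the 52, 20 had a positive and 32 a negative log2 fold change, with a median of -0.03, and 2 were called by edgeR's quasi-likelihood test, *Slc7a5* as higher and *Eif4ebp2* as lower, beside 6.28% of all genes tested. None was called among the other mTORC1 and mTORC2 subunits (6 genes), RagB and Ragulator (7), the folliculin complex (3), GATOR1 (3), GATOR2 (5), the tested members of KICSTOR (3), the amino acid sensors (5), the TSC and Rheb partners (2, with *Rhebl1* at a log2 fold change of 0.0046, adjusted p = 0.988) or the upstream regulators (4). Substrates and readers of mTORC1 held 1 called gene of 10, and amino acid transporters 1 of 4. With the block, 4 of the 52 were called, 2 in each direction, beside 14.1% of all genes.

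*Eif4ebp2* (Gene ID 13688, chr10:61428491-61452790) encodes a 4E-BP, a repressor of cap-dependent translation that mTORC1 inactivates. It ranged from 71.2 to 82.1 CPM in Control (median 78.4) and from 36.0 to 68.3 CPM in FRAIL1 muscles (median 56.6). The groups did not overlap, as for 1.77% of all genes, and the log2 fold change was -0.47 (SE 0.114, edgeR quasi-likelihood adjusted p = 0.0286, 0.00961 with the block). *Slc7a5* (Gene ID 20539) encodes LAT1, an importer of leucine and other large amino acids. It ranged from 6.78 to 10.5 CPM in Control (median 7.58) and from 8.60 to 14.6 CPM in FRAIL1 muscles (median 12.5). The groups overlapped, 4 FRAIL1 muscles lay above every Control muscle, and the value was higher in 6 of 6 pairs. The log2 fold change was 0.56 (SE 0.144, edgeR quasi-likelihood adjusted p = 0.0354, 0.00666 with the block). Leaving out 1 muscle at a time, *Eif4ebp2* stayed under the threshold in 6 of 12 fits (edgeR quasi-likelihood adjusted p 0.00363 to 0.0648) and lost the call without Control muscle 1, 2, 3 or 6 or FRAIL1 muscle 1 or 4. *Slc7a5* stayed under it in 3 of 12 (0.0109 to 0.0802), those without Control muscle 4 or FRAIL1 muscle 2 or 3. Without both muscles numbered 5 *Eif4ebp2* was called (0.00450) and *Slc7a5* was not (0.0958, 0.00221 with the block).

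*Ulk1* and *Rps6kb2*, the other genes called with the block, are named here after their values were seen. *Ulk1*, encoding a kinase that starts autophagy and is inhibited by mTORC1, had means of 75.2 ± 4.09 and 60.4 ± 10.1 CPM (SD, n = 6) and a log2 fold change of -0.32 (edgeR quasi-likelihood adjusted p = 0.0583, 0.0205 with the block). *Rps6kb2*, encoding S6 kinase 2, a substrate of mTORC1, had means of 26.5 ± 0.838 and 30.2 ± 2.55 CPM (SD, n = 6) and a log2 fold change of 0.19 (adjusted p = 0.0666, 0.0498 with the block), and 23.7% of its exon length overlaps other genes.

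**Figure D5:**
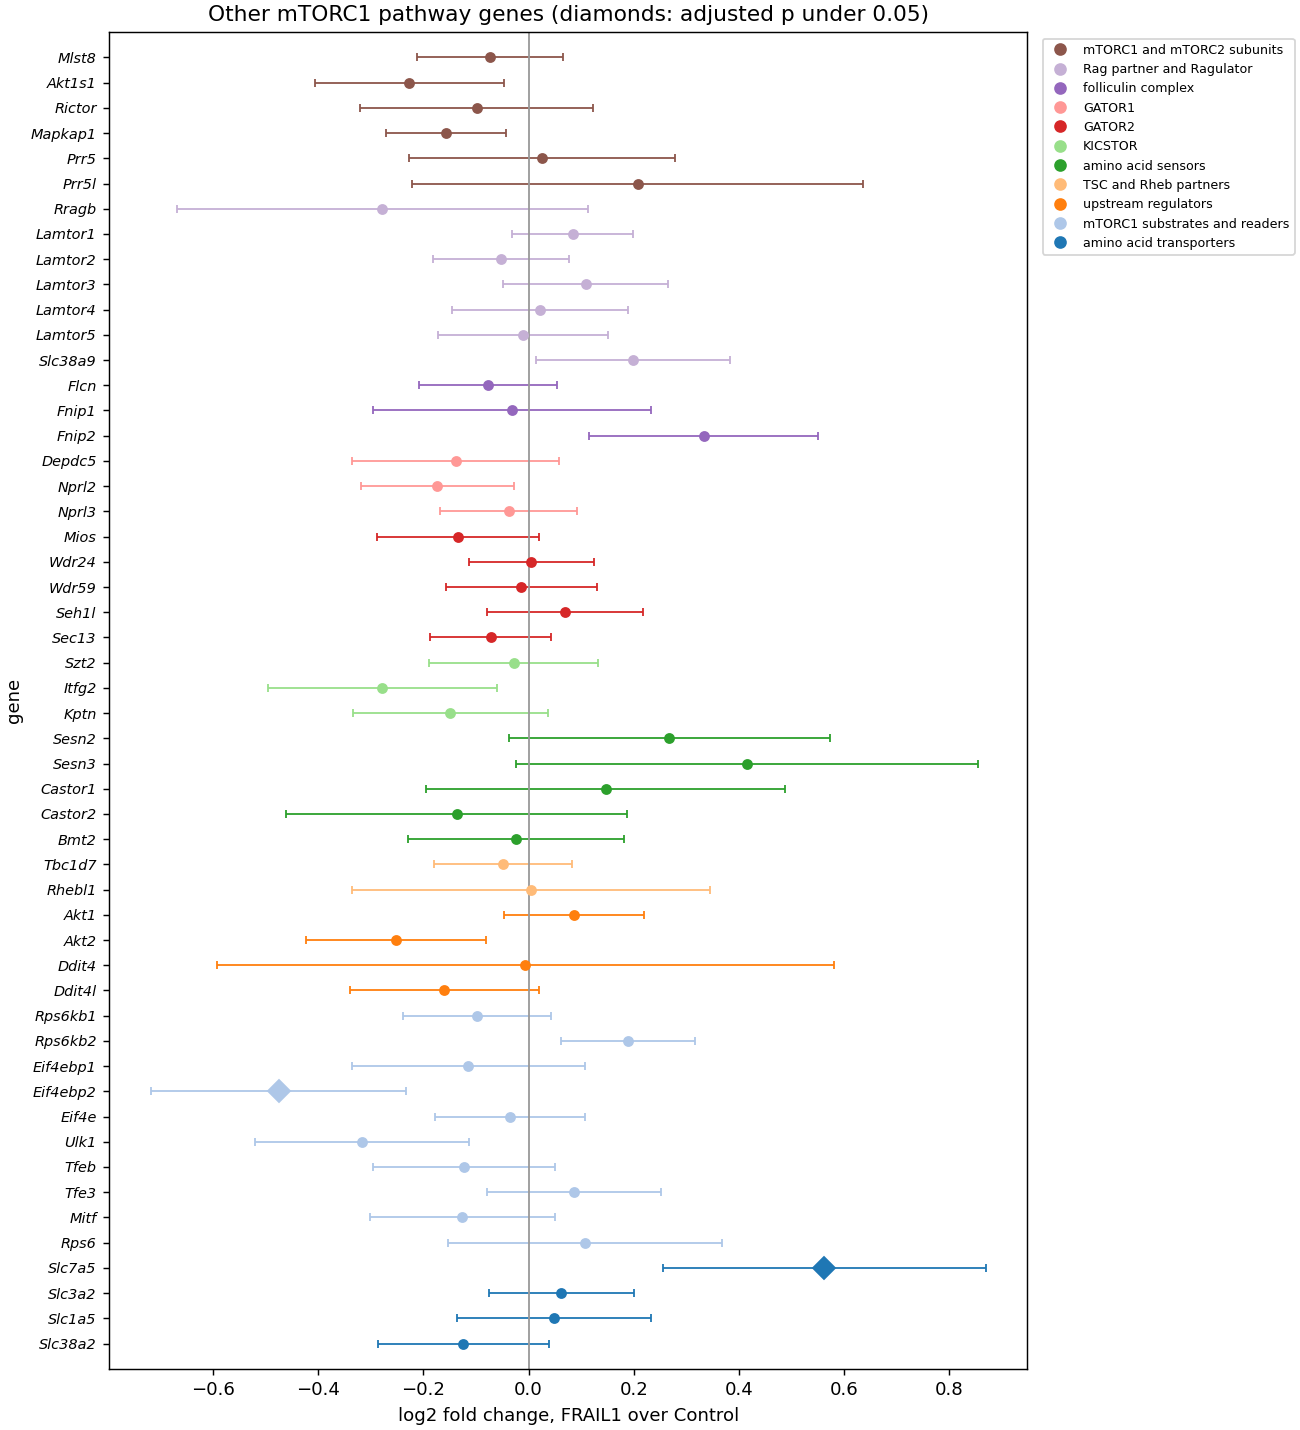
Log2 fold change of FRAIL1 over Control muscles with its 95% interval for the 52 other pathway genes, coloured by function, with diamonds for an adjusted p under 0.05. The diamonds are *Eif4ebp2* (-0.47) and *Slc7a5* (0.56), and the other 50 are circles on both sides of 0.

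The genes whose level followed that of *Tsc1* most closely over the 12 muscles, by Pearson's r of log2 CPM among all genes tested, were *Prkab2* (r = 0.985, Spearman's rho 0.979), *Jak2* (r = 0.982, rho 0.986) and *Gid4* (r = 0.982, rho 0.986). *Prkab2* encodes a regulatory subunit of AMP-activated protein kinase, *Jak2* a tyrosine kinase of cytokine receptors and *Gid4* a substrate receptor of a ubiquitin ligase. Mean levels in Control and FRAIL1 muscles were 314 and 211 CPM for *Prkab2*, 81.5 and 57.1 CPM for *Jak2* and 126 and 77.8 CPM for *Gid4*. Within the groups of 6, r with *Tsc1* was 0.906 to 0.926 in Control and 0.972 to 0.980 in FRAIL1 muscles. These are descriptions across muscles that differ in group, library and cell makeup, and the 3 genes were the closest of 15502, so no p is given.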

How the data were processed

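RNA-seq counts of 12 TA muscles (6 Control, 6 FRAIL1) were used. The authors trimmed paired-end reads of polyA RNA with Trimmomatic, mapped them to mm10 with STAR 2.7.8a and deposited unnormalized counts of uniquely mapped reads per gene (featureCounts 2.0.1). The strand setting and annotation release are not given in the sources used here. Of 27179 Gene IDs, 25275 were matched to RefSeq symbols of GRCm38.p6, and the rest held 0.28% of counts.

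In edgeR 4.0.16 (R 4.3.3), genes passing filterByExpr were fitted with TMM factors and the quasi-likelihood model (robust setting), with Benjamini-Hochberg adjustment over 15502 genes. Intervals are 95% intervals of that fit. CPM per kilobase used the union of GENCODE M21 exons. No other gene shared at least 98% identity over 100 bases with a member, other than overlapping genes (BLAST 2.17.0). The edgeR fits with and without the block were tried on simulated counts that held no pair effect, and the other fits were not.

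The alternatives were the numbered pair as a replicate block, scaling by DESeq2's size factors, by upper quartiles or by TMM without mitochondrial and the top 20 genes, a filter of 10 counts in each muscle or none, each muscle or both muscles numbered 5 left out, a fit that was not robust, limma 3.58.1 voom, and DESeq2 1.42.0. Genes, lists and tests were chosen with earlier results of these data known. All 10 genes, the other pathway genes called without the block, paralogs, and the 3 closest correlates of a called gene were named.

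The series text states that each mouse gave both legs, and the labels do not state that a number marks a mouse. Deviations from the group means correlated between muscles of the same number at 0.254, 0.162, 0.282, 0.263, 0.0547 and 0.185 for numbers 1 to 6 (mean 0.200, against -0.0400 for different numbers). Libraries of the same group differed beyond sampling noise (lowest ratio of chi-square to its degrees of freedom 14.5).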

Additional observations from a re-analysis of the deposited data

Results flagged for a closer look

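*Rragc* in Control muscle 5 was at 33.7 CPM, above the other 5 Control muscles (27.9 to 29.5 CPM). Its gap to the next muscle was 0.724 of the range of the group, past Dixon's 95% critical value for 6 samples. Of 20 groups checked (10 genes in 2 groups) 1 was singled out, and chance singles out about 1 in 20.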

How the results depend on the processing

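Over 24 alternatives no log2 fold change past the threshold changed sign. Of the values of the 10 genes, 218 kept their side of the threshold, 16 passed it that had not (9 of *Rragd*, 7 of *Rheb*), and 6 of *Tsc1*, each with 1 muscle left out, lost it. Of the 10 genes, 1 was called without the block and 3 (*Tsc1*, *Rragd*, *Rheb*) with the replicate block (the numbered pair), without both muscles numbered 5 with or without the block, with limma voom and with DESeq2 with or without the block, and 0 to 3 with 1 muscle left out. Of 52 other pathway genes, 2 were called, beside 4 with the replicate block, 1 without both muscles numbered 5 (4 with the block), 5 with limma voom, 7 with DESeq2 and 6 with DESeq2 and the block, and 0 to 5 with 1 muscle left out. Of all genes, 974 were called, beside 2186 with the replicate block and 1836 with limma voom. Without both muscles numbered 5, 871 were called, or 2305 with the block. DESeq2 called 2211, or 2875 with the block. With 1 muscle left out, 364 (without FRAIL1 muscle 1) to 2110 (without FRAIL1 muscle 3) were called. Calls over all genes thus also rose in most fits that called 3 of the 10 genes. The exception was the fit without both muscles numbered 5 and without the block. The cause was not tested. Depth limits the 10 genes least where counts are high, and they had 433 to 14387 counts per muscle.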
